A study of Mus musculus with 165 samples.

Results

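The brains of the oldest mice of an ageing series, at 28 months, were compared with brains at 24 months. The rule took every brain library labelled 28 months (18 libraries) and every brain library labelled 24 months (17 libraries), with the library preparation as a covariate. These are 35 of the 82 brain libraries and of the 165 libraries in all, which also covered the liver and the ages of 3, 9 and 15 months. All mice were male C57BL/6J/Ukj, an inbred laboratory strain, and both groups carried no transgene or treatment in the labels, which say that the animals were held only to grow old. Each library is one mouse, polyadenylated RNA was sequenced in bulk, and no brain region was named. The p-values therefore measure the spread between mice, estimated over all 82 brain libraries and not over the 35 compared. With only the 35 in the fit far fewer genes were called, as given below. In bulk RNA fewer cells of a type and less RNA per cell cannot be told apart.

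In mice, 24 months is old and 28 months is close to the end of the usual lifespan, an age at which frailty and illness become common. The ageing brain is known for microglia, its resident immune cells, that take up an activated state, for astrocytes that raise complement and other reactive genes, and for a falling supply of new neurons and of precursor cells of the myelin-forming oligodendrocytes. Glucocorticoids, the adrenal stress hormones, act on brain cells through a receptor that switches genes on directly, and circulating levels follow both stress and the daily clock.

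Depth ran from 11.5 to 73.4 M counts per library, and 2 libraries stood apart in their make-up. Coding genes with less than 1000 exonic bases took 2.1% of coding counts in 24 months replicate 13 and 4.09% in 28 months replicate 15, against 0.574% to 0.994% in the other 33 libraries. Coding genes above 5000 bases took 42.3% and 35.6% there, against 53.3% to 59.2%. The second of these libraries was also the shallowest, at 11.5 M counts, and the other 33 held at least 22.3 M. Summed neuron markers lay between 2578 and 4864 CPM (counts scaled to a common library total) in all 35 libraries, as the labelled tissue has. Choroid plexus markers, from a tissue that lines the ventricles, ran from 41.2 to 4399 CPM at 24 months and from 46.9 to 5323 CPM at 28 months, and edgeR, DESeq2 and voom called 0 of their 6 genes (1 at an unadjusted p under 0.05). Values below are over all libraries. Those without the 2 that lean to short transcripts are added for calls, counts and sizes that turned on them, though not for every list's median. Of the 31 called genes picked by the naming rule, which itself required a call without the 2 libraries of its 10 highest and 10 lowest genes, Sult1a1 was the 1 whose log2 fold change moved by more than 1.5 times.

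**Figure D1:**
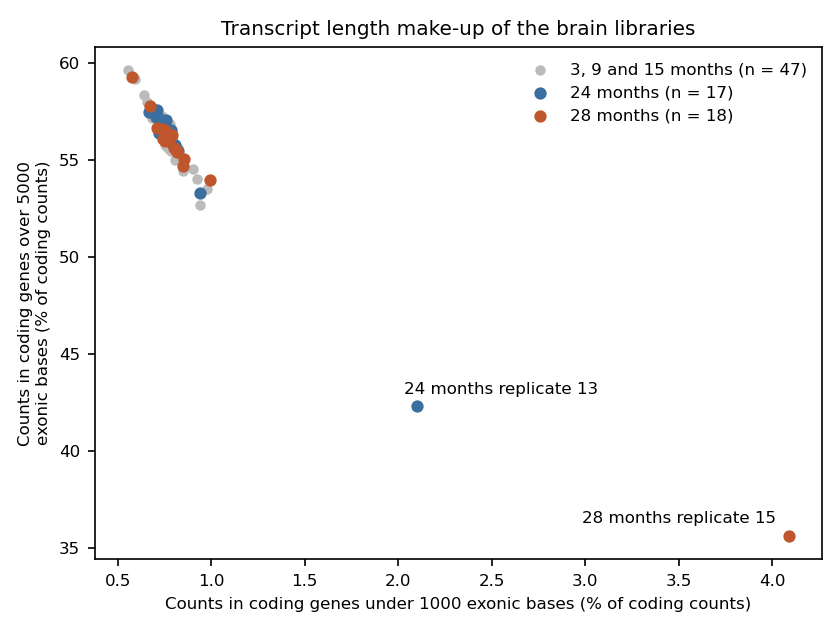
Each point is 1 brain library, placed by the share of coding counts from genes under 1000 exonic bases (x axis, %) and over 5000 exonic bases (y axis, %), for 24 months (blue), 28 months (orange) and the younger ages (grey). The libraries 24 months replicate 13 and 28 months replicate 15 lie apart from the rest, at 2.1% and 4.09% on the x axis.

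Between 24 and 28 months the brain gained expression of Plin4, a protein that coats lipid droplets, of the complement component C4b and of the microglial receptors Clec7a and Itgax. It lost expression of Fabp7, a fatty acid binding protein of glia and neural stem cells, of Gpr17, a receptor of maturing oligodendrocyte precursors, and of several histone, chaperone and matrix genes. Of 18711 genes tested, 204 were called at an adjusted p under 0.05, which is 1.09% (quasi-likelihood test in edgeR with p-values adjusted by Benjamini-Hochberg, which holds for every adjusted p here). They split into 99 higher (0.529% of genes tested) and 105 lower (0.561%). Fold changes were positive in 52.8% of all genes tested and negative in 47.2%. Without the 2 libraries they were positive in 50.1% and negative in 49.9%. The counts of each list below are to be read against these shares. Most differences were small, with a median absolute log2 fold change of 0.31 among called genes and 0.07 among all tested. By 2-fold or more, 6 called genes were higher and 1 was lower. The 3 largest increases, singled out after their values were seen, were in the gene models Gm44799, Gm19445 and Gm11478, with log2 fold changes of 2.85, 2.70 and 1.89. These came to 0.25, 0.15 and 0.29 without the 2 libraries, and the calls were lost (adjusted p = 0.62, 0.821 and 0.524). The values of the 2 ages overlapped for all 204 called genes, and the count of tested genes with no overlap was 0, or 0%.

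Without the 2 libraries, 669 of 18692 genes were called (3.58%), of which 331 were higher (1.77%) and 338 lower (1.81%), and 197 of the 204 were among them in the same direction. The count of calls moved with the tool and the filter, to 425 with DESeq2, 899 with voom and 105 with no filter on low counts, and with the libraries in the fit. With only the 24- and 28-month libraries in the fit, 2 genes were called, and 152 without the 2 libraries. Of the 31 called genes picked by the naming rule, 29 lost their call in the first of these fits, all but C4b and Gm38642. In the second, 13 of 31 lost it: Plin4 (adjusted p = 0.0514), Rtp1, Sult1a1, Gabrr2, Itgax, C3ar1, Fcrls, Olfml3, Tnc, Nat8f5, Cry2, Pdia3 and 2810407A14Rik (up to 0.112). The direction of all 31 was the same in both fits. In the first the log2 fold changes of Plin4, Fabp7, Clec7a and Gpr17 were 1.73, -0.73, 0.81 and -0.51, beside 1.69, -0.74, 0.83 and -0.51 over all ages. Prep 1 alone gave 8 genes and preps 2 and 3 gave 0 each, where 1474 and 3020 genes had an unadjusted p under 0.05.

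**Figure D2:**
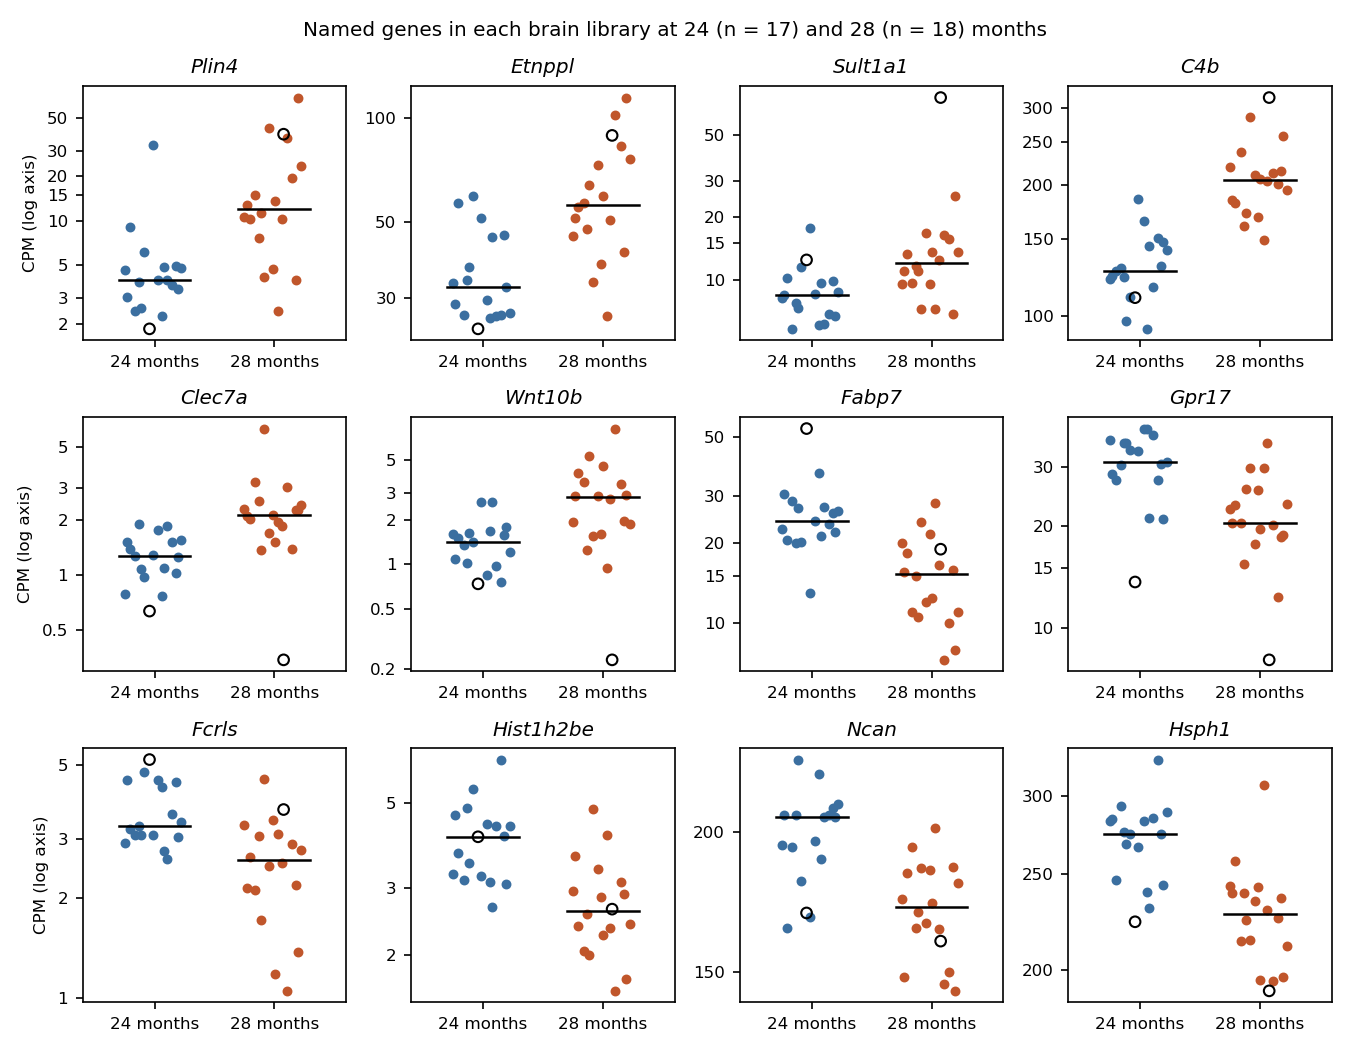
Each panel shows 1 gene in CPM on a log axis, with 1 point per mouse at 24 months (17, blue) and 28 months (18, orange), bars at the medians, and open circles for 24 months replicate 13 and 28 months replicate 15. The median of Plin4 moves from 3.95 to 12.1 CPM and that of Fabp7 from 24.3 to 15.3 CPM, and in every panel the ages overlap.

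Single genes that glucocorticoids are known to induce rose at 28 months. Of 25 tested members of this list, 3 rose (Plin4, Sult1a1 and Nfkbia) and 0 fell. A positive fold change was seen in 21 of the 25, against 52.8% of all genes tested, and the median log2 fold change was 0.23, against 0.01 over all genes tested. Plin4 (chr17:56100591-56109803, minus strand, protein coding) stood at a lowest, median and highest value of 1.85, 3.95 and 32.9 CPM at 24 months and at 2.46, 12.1 and 68.6 CPM at 28 months. All but 1 of the 28-month mice lay above the 24-month median, and 1 mouse at 24 months (replicate 5) lay above 14 of the 18 mice at 28. Plin4 rose by a log2 fold change of 1.69 ± 0.33 (SE, adjusted p = 0.00215), and by 1.53 ± 0.33 without the 2 libraries (adjusted p = 0.00368). Of 16 tested genes of lipid droplets Plin4 was the 1 that was called, 10 had positive fold changes and the median was 0.04. Without the 2 libraries 7 were positive and 9 negative, the median was -0.01 and Cideb, which enlarges droplets, was called lower (-0.34 ± 0.10, adjusted p = 0.0352). The exons of Plin4 overlap Hdgfl2 on the other strand, and whether the counting used the strand is not given in the sources used here.

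Sult1a1, a sulfotransferase of phenols and steroids, ran from 5.83 over a median of 8.49 to 17.9 CPM at 24 months and from 6.84 over 12.1 to 75.3 CPM at 28 months. Its highest value came from 28 months replicate 15, and the next highest was 25.4 CPM. It rose by 0.79 ± 0.18 (adjusted p = 0.0135), and by 0.50 ± 0.13 without the 2 libraries (adjusted p = 0.0195), so that these libraries moved its size by more than 1.5 times. Nfkbia, the inhibitor that holds NF-kappaB in the cytoplasm, rose by 0.32 ± 0.08 (adjusted p = 0.0323), with 17 of 18 mice above the 24-month median. With those libraries left out, the hypoxia and stress gene Hif3a (0.76 ± 0.23, adjusted p = 0.0489) and the kinase Sgk1 (0.50 ± 0.13, adjusted p = 0.0168) were called as well. The immunophilin Fkbp5, a much used readout of the receptor, was at 0.29 ± 0.09 with an adjusted p of 0.0696, and Tsc22d3 at 0.34 ± 0.13 with an adjusted p of 0.197.

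Genes outside this list moved beside Plin4. Etnppl, which breaks down phosphoethanolamine and is expressed mainly by astrocytes, ran from 24.5 over a median of 32.5 to 59.3 CPM at 24 months and from 26.7 over 56.0 to 115 CPM at 28 months. It rose by 0.76 ± 0.16 (adjusted p = 0.00688), with 17 of 18 mice above the 24-month median. Rtp1, a chaperone that brings odorant receptors to the cell surface, had medians of 0.877 and 2.45 CPM and rose by 1.31 ± 0.34 (adjusted p = 0.0328). Leaving out 1 library at a time, Rtp1 lost its call in 9 of 35 cases and Etnppl in 0.

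The 28-month mice were not alike in these genes. Replicates 4, 5, 8 and 10 had the 4 lowest values of Plin4, between 2.46 and 4.74 CPM, where the other 14 mice had at least 7.62 CPM. The same 4 mice were also the 4 lowest of the 18 in Etnppl, Rtp1, Sult1a1 and Mfsd2a, a lipid transporter of brain endothelium and 1 of 4 genes with a positive fold change among 18 of the endothelial list. That is 4 of the 50 other genes the naming rule picked. In 3 more (Ciart, Cry2 and Gjb6) 3 of these mice were among the 4 lowest. In 7 genes (Fabp7, Itgax, Olfml3, Ncan, Grm3, Hist1h1e and 2810407A14Rik) 3 of them were among the 4 highest, and in 0 genes were all 4. Of these 4 libraries, 3 came from prep 2 and 1 from prep 1. Over the 18 mice of 28 months, log2 Plin4 and log2 Etnppl had a Pearson r of 0.96 and a Spearman rho of 0.94, each with a permutation p of 1e-05, the smallest that 100000 permutations can give. Without the 2 mice farthest from the median of Plin4 r was 0.93, and within preps it was 0.91, 0.997 and 0.90.

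Rtp1 followed Plin4 with r = 0.91 and rho = 0.90 (permutation p = 1e-05 and 2e-05), and Sult1a1 with r = 0.77 and rho = 0.88 (3e-05 and 2e-05). Ciart had r = 0.57 and rho = 0.65 (permutation p = 0.0144 and 0.00411). Fabp7 ran the opposite way, with r = -0.75 and rho = -0.70 (permutation p = 5e-04 and 0.0015). Without the 2 mice farthest from the median of Plin4, r was 0.86 for Rtp1, 0.73 for Sult1a1, 0.47 for Ciart and -0.61 for Fabp7. Within preps the r of Ciart was 0.44, 0.93 and -0.06, and 0.55 in prep 3 without 28 months replicate 15. Within preps the r of Fabp7 was -0.73, -0.999 and 0.03, and -0.61 in prep 3 without 28 months replicate 15. At 24 months the r with Plin4 was 0.70 for Etnppl and -0.83 for Fabp7 over 17 mice (permutation p = 0.00063 and 0.00013), and 0.66 and -0.79 without the 2 farthest mice. For Rtp1 at 24 months r was 0.63 and rho 0.40 (permutation p = 0.00669 and 0.115), and r was 0.11 without the 2 farthest mice, so that it rested on those. Sult1a1 had r = 0.69 (permutation p = 0.00513) and 0.28 without the 2 farthest mice, but 0.90 without 24 months replicate 13. For Ciart r was 0.08 at 24 months (permutation p = 0.754), for C4b 0.61 (0.00965, and 0.43 without the 2 farthest mice) and for Clec7a 0.21 (0.431). Over all libraries of 28 months, the r was 0.46 for C4b and -0.35 for Clec7a (permutation p = 0.0528 and 0.155). These are 8 measures in each of 2 ages, 16 relations, chosen after the values were seen in the same mice, so that neither the p-values nor their adjustment over the 16 cover that choice, and they stand as a description. The adjusted permutation p of r at 28 months was 8e-05 for Etnppl and Rtp1, 0.00016 for Sult1a1, 0.0016 for Fabp7 and 0.023 for Ciart. The share of short transcripts had r = 0.23 with Plin4 at 28 months (permutation p = 0.408) and -0.26 at 24 months (0.194).

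**Figure D3:**
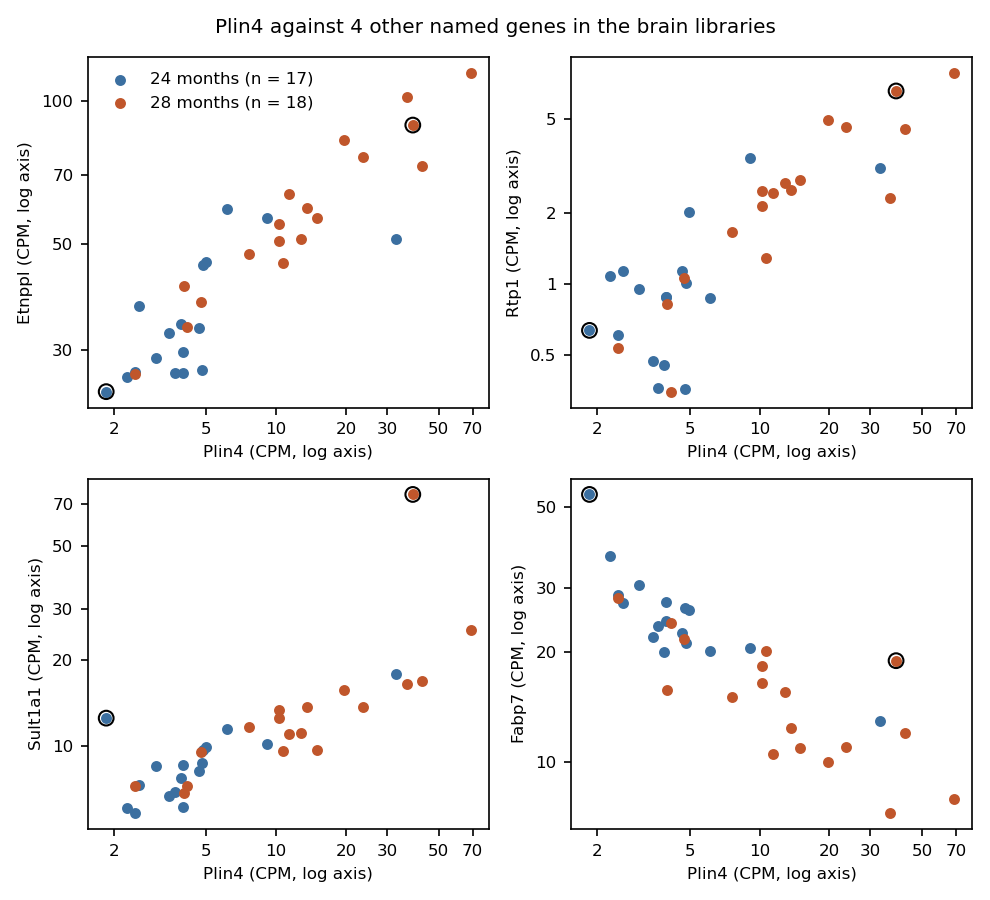
Each point is 1 mouse at 24 months (17, blue) or 28 months (18, orange), placed by Plin4 and by Etnppl, Rtp1, Sult1a1 or Fabp7, all in CPM on log axes, with rings on 24 months replicate 13 and 28 months replicate 15. Etnppl rises with Plin4 along 1 band that holds both ages, and Fabp7 falls.

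Single core genes of the daily clock rose. The labels give no hour of death and no health record per mouse, saying only that the environment and health status were controlled, so neither the clock genes nor the glucocorticoid list could be set against these. Of 18 tested clock genes, 2 rose (Ciart and Cry2) and 0 fell, with a median of 0.09. Positive fold changes were seen in 14 of the 18, against 52.8% of all genes tested. Ciart, a repressor of the clock's activator pair, ran from 5.92 over a median of 8.73 to 11.2 CPM at 24 months and from 6.65 over 13.2 to 19.8 CPM at 28 months. The ranges overlapped, and 14 of 18 mice of 28 months lay above the 24-month median. Ciart rose by 0.53 ± 0.10 (adjusted p = 0.0017). Cry2, another repressor, rose by 0.10 ± 0.03 (adjusted p = 0.0362), a call lost in 16 of the 35 fits without 1 library, and its change in prep 2 alone was 0.00. Among the 33 other libraries, Nr1d1 (0.21), Dbp (0.30) and Nr1d2 (0.19) were also called higher and the activator Arntl lower (-0.16), 5 higher and 1 lower of 18. Over all genes tested there, 1.77% were called higher and 1.81% lower. Per2 was at 0.02 ± 0.08 with an adjusted p of 0.971. With a clock score per library as a covariate and without the 2 libraries, 727 genes were called, and 11 of 31 called named genes lost their call, among them Plin4, Sult1a1, Etnppl and Rtp1. In that fit the log2 fold changes were 0.75 ± 0.33 for Plin4, 0.35 ± 0.14 for Sult1a1, 0.37 ± 0.16 for Etnppl and 0.59 ± 0.36 for Rtp1, beside 1.53, 0.50, 0.70 and 1.19 without the covariate. Over all libraries the same covariate ended 0 of these 31 calls, and the changes were 1.6, 0.82, 0.70 and 1.21. What part the clock has in these changes was not tested.

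The clock's activators bind a DNA element called the E-box, spelled CACGTG. It was found on either strand in 5 of 16 clock gene promoters with a window in the reference table (31.2%), against 9.53% of the 12933 windows of genes tested and 7.24% of all 27025 windows. Among genes called higher 3 of 65 windows held it (4.62%), and among genes called lower 7 of 67 (10.4%). The short element of steroid receptors, TGTTCT, was in 2 of 20 windows of the glucocorticoid list (10%, Sgk1 and Sult1a1), against 12.8% of genes tested. Also searched were the D-box TTATGTAA, in 1 of 65 higher and 1 of 67 lower genes, the cyclic AMP response element TGACGTCA, in 1 and 2, and CCAAT, in 28 and 27, which is 43.1% and 40.3% against 38.1% of genes tested. Such a match is a description of letters and not a bound site. The Ciart promoter is shown because it carries 3 of them, in capitals, between 44 and 116 bases before the start (RefSeq, GRCm38.p6, chr3:95882229-95882478, minus strand).
Ciart: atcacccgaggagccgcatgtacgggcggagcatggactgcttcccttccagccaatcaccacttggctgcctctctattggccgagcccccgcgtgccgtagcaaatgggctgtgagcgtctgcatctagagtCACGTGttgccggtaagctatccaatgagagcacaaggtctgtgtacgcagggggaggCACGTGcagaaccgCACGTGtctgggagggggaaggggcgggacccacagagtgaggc

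Single protein-folding genes fell at 28 months. Among 17 heat shock genes 2 fell (Hsph1 and Stip1) and 0 rose, with 15 negative fold changes, against 47.2% of all genes tested, and a median of -0.04. Hsph1, a large chaperone that recharges Hsp70 proteins, ran from 224 over a median of 275 to 326 CPM at 24 months and from 191 over 228 to 308 CPM at 28 months. All but 1 of the 28-month mice lay below the 24-month median, and the decrease was -0.24 ± 0.05 (adjusted p = 0.00832). Stip1, which links Hsp70 to Hsp90, fell from medians of 124 to 109 CPM, by a log2 fold change of -0.19 ± 0.04 (adjusted p = 0.00714). In the other 33 libraries all 17 had negative fold changes, the median was -0.07 and 5 were called. Added there were the master regulator Hsf1 (-0.14 ± 0.04, adjusted p = 0.0435), Hspa8 (-0.13) and the small heat shock protein Hspb1 (-0.44). Hsf1 was below the 24-month median in all 18 mice of 28 months.

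In the endoplasmic reticulum list 2 of 19 fell (Pdia6 and Pdia3), 0 rose and the median was -0.14. Both are disulfide isomerases, which help secreted proteins form their bonds. Pdia6 ran from 79.7 over a median of 91.5 to 149 CPM at 24 months and from 49.7 over 76.1 to 134 CPM at 28 months, and 16 of 18 mice lay below the 24-month median. It fell by 0.29 on the log2 scale (SE 0.07, adjusted p = 0.0299), though its change in prep 3 alone was 0.00. Its call was lost without 24 months replicate 12 or 28 months replicates 7, 11 or 17 (adjusted p up to 0.0639). Pdia3 was at -0.19 ± 0.05 (adjusted p = 0.038), a call lost in 14 of 35 fits without 1 library. The calcium-binding chaperone Calr was called without the 2 libraries (-0.27 ± 0.05, adjusted p = 0.000526) but not over all libraries (adjusted p = 0.501). The central chaperone Hspa5 was at -0.27 ± 0.08 with an adjusted p of 0.0773.

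Promoters of both chaperone lists were searched for known elements. The core of the heat shock element, GAANNTTC, was found in 9 of 13 heat shock promoters with a window (69.2%), against 5.78% of genes tested. The endoplasmic reticulum stress element, a CCAAT followed after 9 bases by CCACG, was found in 7 of 17 windows (41.2%), against 0.147% of genes tested. This element was added to the search after the data were seen. The promoters of Pdia6 (chr12:17266339-17266588, plus strand, 1 element 98 bases before the start) and Hspb1 (chr5:135887669-135887918, plus strand, 2 cores at 117 and 97 bases) are shown, from the same table, with the element in capitals, because they carry the letters the lists share. Among all genes called lower, 2 of 67 windows held the heat shock core and 1 of 67 the stress element.
Pdia6: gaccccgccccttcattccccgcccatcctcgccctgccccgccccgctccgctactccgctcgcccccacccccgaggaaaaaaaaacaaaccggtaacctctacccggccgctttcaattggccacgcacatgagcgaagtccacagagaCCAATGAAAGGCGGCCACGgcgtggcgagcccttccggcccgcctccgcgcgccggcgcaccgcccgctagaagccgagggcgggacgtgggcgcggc
Hspb1: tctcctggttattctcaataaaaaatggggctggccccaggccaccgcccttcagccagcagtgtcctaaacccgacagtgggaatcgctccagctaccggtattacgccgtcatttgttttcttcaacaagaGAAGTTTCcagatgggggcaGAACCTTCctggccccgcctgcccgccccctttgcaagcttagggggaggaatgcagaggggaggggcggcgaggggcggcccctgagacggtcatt

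Immune genes of glia rose in part. The complement component C4b, made by astrocytes and oligodendrocytes, had the smallest adjusted p of all genes. It ran from 93.6 over a median of 127 to 185 CPM at 24 months and from 149 over 205 to 317 CPM at 28 months. All 18 mice of 28 months lay above the 24-month median, although the ranges overlapped. C4b rose by 0.68 ± 0.09 (adjusted p = 3.9e-06), and reads could be shared with its near-identical copy C4a. The complement receptor C3ar1 of microglia rose by 0.35 ± 0.09 (adjusted p = 0.0234), so that 2 of 15 complement genes rose and 0 fell. The call of C3ar1 was lost without 28 months replicate 7 or 17 (adjusted p = 0.0518 and 0.0585).

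Genes of disease-associated microglia, the state that microglia take around amyloid plaques, had 3 of 24 members called higher (Clec7a, Itgax and Csf1) and 0 lower. Positive fold changes were seen in 23, with a median of 0.15. Over all genes tested 0.529% were called higher and 52.8% were positive. Without the 2 libraries 4 members were called higher, Cst7 among them, 21 were positive and the median was 0.09. Clec7a, a receptor for fungal glucans, ran from 0.636 over a median of 1.26 to 1.91 CPM at 24 months and from 0.345 over 2.11 to 6.30 CPM at 28 months. The lowest value at 28 months was that of replicate 15, and the next was 1.38 CPM. Clec7a rose by 0.83 ± 0.17 (adjusted p = 0.00413). Itgax, the integrin CD11c, rose by 0.81 ± 0.20 (adjusted p = 0.0225), and the growth factor Csf1 by 0.18 ± 0.05 (adjusted p = 0.0447). The call of Itgax was lost without 28 months replicate 7 or 8 (adjusted p = 0.0503 and 0.0557). Apoe, another gene of this state, was at 0.14 ± 0.12 with an adjusted p of 0.675.

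Of 13 genes of resting microglia, 2 fell (Fcrls and Olfml3), 0 rose and the median was -0.07. Fcrls, a receptor-like protein of microglia, ran from 2.60 over a median of 3.27 to 5.19 CPM at 24 months and from 1.05 over 2.59 to 4.52 CPM at 28 months. It fell by 0.49 (SE 0.11, adjusted p = 0.00737), with 14 of 18 mice below the 24-month median. Olfml3, a secreted protein of microglia, fell by 0.38 (SE 0.08, adjusted p = 0.00892), with 17 of 18 mice below that median and 28 months replicate 8 at 43.1 CPM as the exception. In prep 2 alone, which holds 3 of the 4 low Plin4 libraries, the change of Olfml3 was -0.02. Tmem119, a marker of resting microglia, was at -0.05 ± 0.08 with an adjusted p of 0.845, and summed microglia markers had medians of 390 and 371 CPM.

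Among 20 reactive astrocyte genes C4b was the 1 that was called. Without the 2 libraries the filament protein Gfap (0.30 ± 0.07, adjusted p = 0.00964) and the protease inhibitor Serpina3n (0.27 ± 0.08, adjusted p = 0.0433) were called higher too, and Hspb1 lower. Over all libraries Gfap was at 0.26 ± 0.07 with an adjusted p of 0.0576. Of the interferon-stimulated genes 25 of 26 had positive fold changes with a median of 0.19, against 52.8% of all genes tested. Of these 26 edgeR called 0, with 11 at an unadjusted p under 0.05, DESeq2 called 0 and voom 1. Ifit1 had the smallest p (0.50 ± 0.18, adjusted p = 0.159). Without the 2 libraries Ifit1 (0.56 ± 0.17, adjusted p = 0.0425) and Rtp4 (0.38 ± 0.11, adjusted p = 0.0415) were called.

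Genes of precursor cells fell in single members. Fabp7 (chr10:57784881-57788450, plus strand) ran from 13.0 over a median of 24.3 to 54.0 CPM at 24 months and from 7.26 over 15.3 to 28.2 CPM at 28 months. All but 1 of the 28-month mice lay below the 24-month median. It fell by 0.74 on the log2 scale (SE 0.11, adjusted p = 6.5e-05), and by 0.68 (SE 0.11) without the 2 libraries. It was the 1 called gene of 25 tested genes of neural precursors and newborn neurons, whose median was -0.05, and astrocytes express it too. The tubulin Tubb2b was called lower as well without the 2 libraries (-0.27 ± 0.06, adjusted p = 0.0037). Doublecortin, Dcx, the usual marker of newborn neurons, was at -0.05 ± 0.10 with an adjusted p of 0.906.

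Gpr17, switched on as an oligodendrocyte precursor commits to mature, ran from 13.7 over a median of 31.1 to 38.9 CPM at 24 months and from 8.04 over 20.4 to 35.3 CPM at 28 months. The lowest values of both ages came from the 2 libraries that lean to short transcripts. Gpr17 fell by 0.51 (SE 0.10, adjusted p = 0.00196), and by 0.51 (SE 0.08) without them. It was the 1 called gene of 15 of the precursor list. Pdgfra, the marker of the uncommitted precursor, was at -0.01 ± 0.06 with an adjusted p of 0.978. Of 16 myelin genes 14 had positive fold changes with a median of 0.20, against 52.8% of all genes tested. Of these 16 edgeR called 0, with 5 at an unadjusted p under 0.05, DESeq2 called 0 and voom 1. Cldn11 was at 0.36 ± 0.12 with an adjusted p of 0.128.

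Histone genes that are made during DNA replication had the lowest median of the lists examined. Of 18 tested, 3 fell (Hist1h1e, Hist1h2be and Hist1h4i), 0 rose and the median was -0.36. Negative fold changes were seen in 17, against 47.2% of all genes tested. In the fit without the 2 libraries 6 were called lower, with Hist2h3c2, Hist2h4 and Hist3h2a, and all 18 had negative fold changes. Hist1h2be ran from 2.68 over a median of 4.08 to 6.49 CPM at 24 months and from 1.62 over 2.61 to 4.82 CPM at 28 months, and fell by 0.53 (SE 0.12, adjusted p = 0.00947). Hist1h1e, a linker histone, fell by 0.88 (SE 0.19, adjusted p = 0.00947) from a median of 0.838 to 0.449 CPM. Both genes overlap on the same strand, so that reads could be split between them. These messages mostly lack a poly(A) tail, and the libraries were made from polyadenylated RNA.

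Of 24 extracellular matrix genes 2 fell (Ncan and Tnc) and 0 rose, and 23 had negative fold changes, against 47.2% of all genes tested. Neurocan, Ncan, a proteoglycan of the nets around neurons, ran from 164 over a median of 206 to 232 CPM at 24 months and from 144 over 171 to 201 CPM at 28 months. All 18 mice of 28 months lay below the 24-month median, and the decrease was -0.22 ± 0.04 (adjusted p = 0.00181). Tenascin C, Tnc, fell by 0.43 (SE 0.11, adjusted p = 0.0323), a call lost in 8 of the 35 fits without 1 library.

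Of 18 genes of brain endothelium and its barrier, edgeR called 0 (8 at an unadjusted p under 0.05), and DESeq2 and voom 2 each. Negative fold changes were seen in 14, against 47.2% of all genes tested, with a median of -0.09, and of -0.12 without the 2 libraries. The transporter Mfsd2a had the smallest p of the list, at 0.27 ± 0.08 with an adjusted p of 0.0654. The transferrin receptor Tfrc was at 0.19 ± 0.08 and was called without the 2 libraries (adjusted p = 0.0344). Kdr, a receptor of vascular growth factor, was at -0.23 ± 0.09. The summed endothelial markers Cldn5, Pecam1, Flt1 and Cdh5 had a lowest, median and highest level of 132, 189 and 255 CPM at 24 months and of 121, 161 and 392 CPM at 28 months, with the highest in 28 months replicate 15. Leaving out both, the highest were 252 and 184 CPM, and the ages overlapped.

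Further genes reached the 10 largest changes in either direction without belonging to a list. Wnt10b, a secreted Wnt ligand, ran from 0.742 over a median of 1.41 to 2.62 CPM at 24 months and from 0.230 over 2.81 to 8.13 CPM at 28 months. It rose by 0.96 ± 0.17 (adjusted p = 0.000716), with the lowest value in 28 months replicate 15. Gabrr2, a rho subunit of GABA receptors, rose by 0.89 ± 0.20 (adjusted p = 0.0124) from medians of 0.626 to 0.957 CPM, a call lost without 28 months replicate 17 (0.68, adjusted p = 0.0669). The long noncoding RNA gene Gm38642 rose by 1.05 ± 0.18 (adjusted p = 0.00043), with 16 of 18 mice above the 24-month median of 0.656 CPM. Gm43844, a transcript model without an assigned class, rose by 0.97 ± 0.20 (adjusted p = 0.00342).

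The metalloprotease Adam8 was lower than the 24-month median in all 18 mice of 28 months. It ran from 3.39 over a median of 5.21 to 9.24 CPM at 24 months and from 2.68 over 3.76 to 5.04 CPM at 28 months, and fell by 0.42 (SE 0.10, adjusted p = 0.02). The call was lost without 24 months replicate 12 or 28 months replicate 17 (adjusted p = 0.0625 and 0.0512). Nat8f5, of an N-acetyltransferase family, fell by 0.48 (SE 0.13, adjusted p = 0.036), a call lost in 12 of 35 fits without 1 library, and its exons overlap its neighbour Nat8f6. Also lower were the noncoding genes 2810407A14Rik (-0.57), A830092H15Rik (-0.54) and Gm26575 (-0.47), the first of which lost its call without 28 months replicate 17 (adjusted p = 0.06). A830092H15Rik lies antisense to Nlgn1, a synaptic adhesion gene, so its counts can hold reads of that gene if strand was not used.

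The medians of lists of short housekeeping messages moved with the 2 libraries that lean to short transcripts. For the 77 cytosolic ribosomal protein genes the median was 0.22 with 0 calls in edgeR, DESeq2 and voom (15 at an unadjusted p under 0.05), and 0.03 without the 2 libraries. The 82 nuclear genes of oxidative phosphorylation had 0.15 and 0 calls in edgeR and DESeq2 and 1 in voom (10 at an unadjusted p under 0.05), and 0.00 without them. The mitochondrially encoded genes had a median of -0.04. In edgeR 0 genes were called among 23 synaptic, 20 transmitter receptor, 21 neuropeptide and 8 lymphocyte genes, with medians between -0.05 and -0.02 and 2, 1, 2 and 0 genes at an unadjusted p under 0.05. For the same lists DESeq2 called 0, 1, 0 and 0 genes, and voom 1, 2, 0 and 0. In edgeR without the 2 libraries Homer1 (-0.24 ± 0.07) and Grm3 (-0.27 ± 0.06) were called lower in the first pair of these lists. The medians of the lists, in the order given, were then -0.05, -0.03, -0.09 and 0.01.

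**Figure D4:**
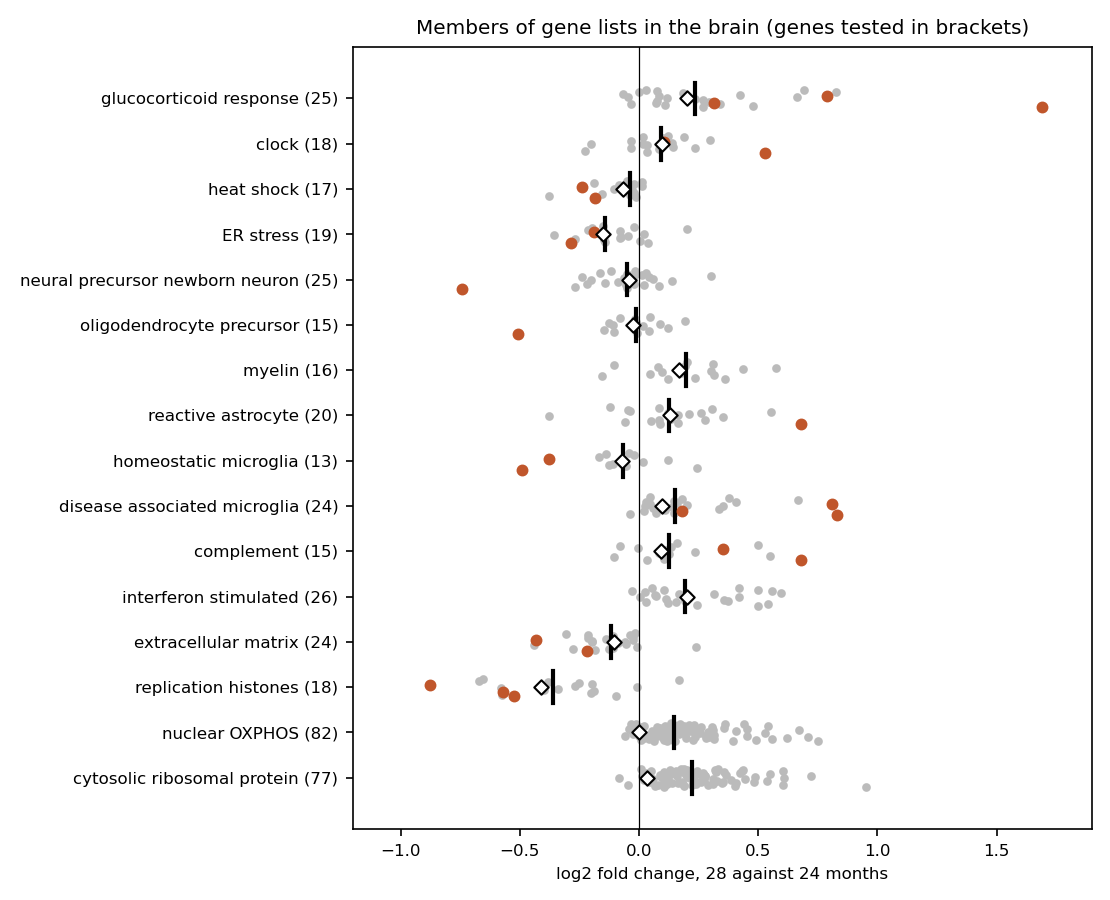
Each point is 1 tested gene of a list, placed by its log2 fold change between 28 and 24 months (x axis); orange points were called, black bars are list medians over all libraries, and diamonds are medians without the 2 libraries. The ribosomal protein median moves from 0.22 to 0.03 and that of the replication histones from -0.36 to -0.41.

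The late step was then set beside earlier ages. Of the 204 called genes, 142 (69.6%) had the same direction between 3 and 15 months, as did 55.0% of all tested genes. These younger mice belong to neither late group, but they entered the same fit and so its prep terms and its estimate of the spread. The count was 71 of 99 for higher and 71 of 105 for lower genes. Gpr17 had already fallen by 0.60 (SE 0.10, adjusted p = 7.2e-05) between 3 and 15 months and Tnc by 0.56 (SE 0.12, adjusted p = 0.00241), whereas C4b had risen by 0.79 ± 0.10 (adjusted p = 4.0e-08). Fabp7 was at -0.17 ± 0.12 (adjusted p = 0.867), Wnt10b at 0.28 ± 0.19 (adjusted p = 0.844) and Olfml3 at 0.03 ± 0.09 (adjusted p = 0.999).

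The step from 15 to 24 months uses the same 24-month mice and is given only side by side. Between 15 and 24 months C4b rose by 0.86 ± 0.10 (adjusted p = 3.1e-09) and Clec7a by 1.05 ± 0.19 (adjusted p = 0.000646), beside 0.68 and 0.83 between 24 and 28. Gpr17 fell by 0.51 (SE 0.10, adjusted p = 0.00182), beside 0.51. Fabp7 was at -0.15 ± 0.12 (adjusted p = 0.851), Plin4 at 1.01 ± 0.35 (adjusted p = 0.199) and Ciart at 0.10 ± 0.10 (adjusted p = 0.921). Whether these steps differ from the later ones was not tested.

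**Figure D5:**
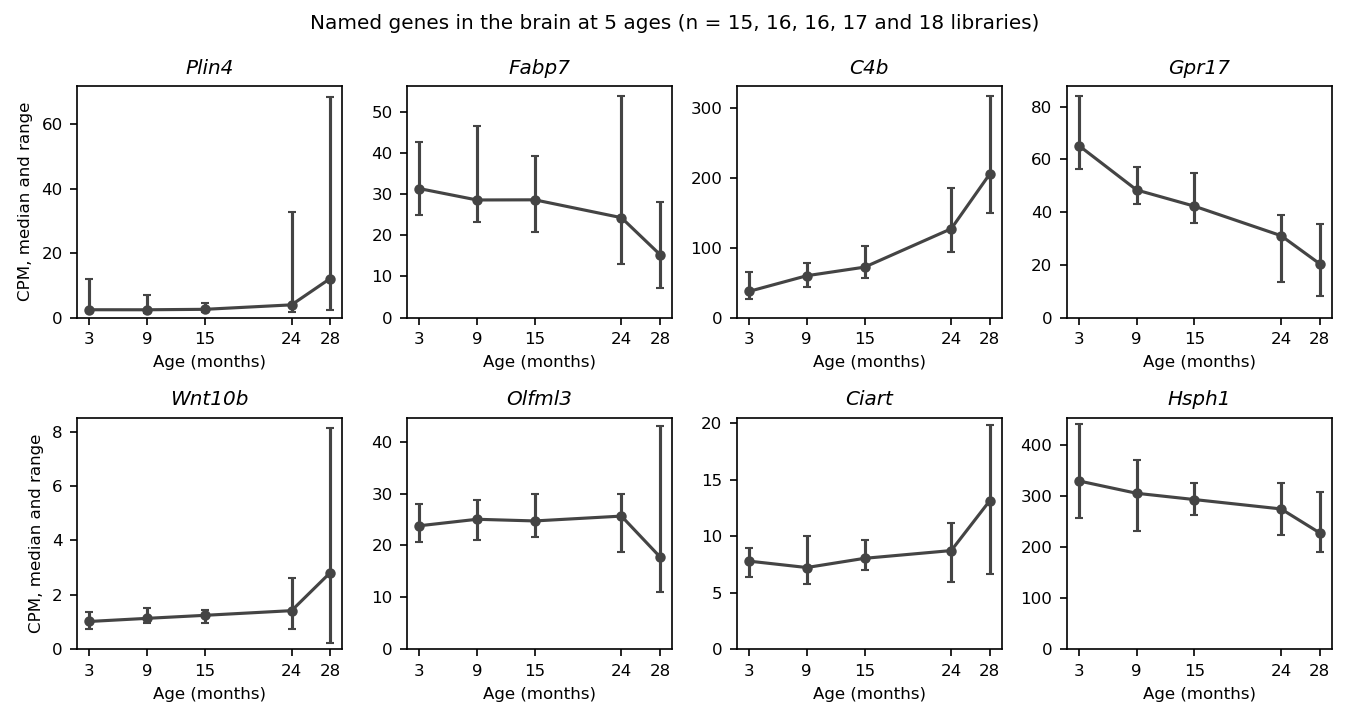
Points are median CPM per age and bars run from the lowest to the highest mouse, at 3, 9, 15, 24 and 28 months (15, 16, 16, 17 and 18 brain libraries). The medians of Gpr17 fall and those of C4b rise from each age to the next. The highest Plin4 values are 12.1, 6.99, 4.39, 32.9 and 68.6 CPM in order of age. The low end of Wnt10b at 28 months (0.230 CPM) is replicate 15, the next mouse being at 0.942.

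The step in the brain was set against the step in the liver of the same mice, for named genes kept in both tissues. The edgeR fit used here treated the 2 tissues of a mouse as independent, and values paired within each mouse are added from limma. Of 14035 genes kept in both tissues, 851 (6.06%) differed between brain and liver in the step from 24 to 28 months, 457 with the higher step in the brain and 394 with the higher step in the liver. With relative log expression size factors in place of TMM, 967 genes differed, 631 and 336, so the split moved with the scaling. A further fit left out both the brain and the liver libraries of 28 months replicate 15 and 24 months replicate 13. There 2149 differed, 1059 and 1090, so that the larger side turned. What the liver libraries alone did to this count was not tested. With only the 2 ages in the fit 184 differed, 129 and 55. With brain and liver paired within each mouse 581 differed in limma, 312 and 269. Fabp7 changed by -0.74 in the brain and by 0.61 in the liver, a difference of -1.35 ± 0.24 (adjusted p = 3.3e-05). Paired within mice this was -1.07 (adjusted p = 0.00089 in limma). Its liver mean was 7.33 CPM (SD 2.28) at 24 months and 11.4 CPM (SD 13.5) at 28. C4b changed by 0.67 and 0.06, a difference of 0.61 ± 0.14 (adjusted p = 0.0025), and of 0.56 when paired (adjusted p = 0.0215 in limma). Ciart changed by 0.52 in the brain and by 3.41 in the liver (adjusted p of the difference 1.2e-05). Its liver mean was 0.943 CPM (SD 2.20) at 24 months and 9.52 CPM (SD 9.71) at 28 months, so the liver mice varied widely. Paired within mice the difference was -2.48 (adjusted p = 0.00021 in limma). For Plin4 the changes were 1.68 and 1.15, and the difference of 0.53 ± 0.42 did not pass the test (adjusted p = 0.494). For Clec7a they were 0.83 and 0.43, a difference of 0.40 ± 0.32 (adjusted p = 0.493), and for Hsph1 -0.25 and -0.26, a difference of 0.02 ± 0.22 (adjusted p = 0.974).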

How the data were processed

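Whole-number counts per gene were deposited by the authors as 1 table per tissue, with 1 column per library (0 columns unused). Per the submitters' processing notes, the tools were cutadapt 2.8, HISAT2 2.1.0, SAMtools 1.9 and featureCounts of Subread 2.0.1, on GRCm38.p6 (mm10). Their settings, the annotation and the use of strand are not given in the sources used here. Positions and exonic lengths came from GENCODE M21, which is on the same build and held 55230 of 55471 identifiers.

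All 82 brain libraries were fitted with edgeR 4.0.16 in R 4.3.3, with TMM scaling, filterByExpr by age, and terms for age and the 3 preps. The estimate of the spread thus includes the younger mice, where some genes varied less. The SD of Plin4 was 0.762 CPM at 15 months and 17.4 at 28, and that of Fabp7 5.05 and 5.72. The two-sided quasi-likelihood test took 28 minus 24 months, with Benjamini-Hochberg adjustment over all genes tested. Standard errors (SE) are the absolute log2 fold change over the square root of F. Levels are TMM-scaled CPM. In simulated counts for this comparison over 18575 genes, 70% of 50 genes changed 1.3-fold and 98% of 50 changed 1.5-fold were recovered. The simulation gave every gene the same dispersion, with no prep effect and no lean to short transcripts. Only genes of at least 1 CPM were changed. The shares therefore do not give the recovery in the real libraries, where genes differ in their spread. DESeq2 1.42.0 and voom in limma 3.58.1 were alternatives. Brain and liver were compared by an interaction of tissue and age, with edgeR, in all 165 libraries, without pairing the tissues of 1 mouse. Correlations between genes used log2 of CPM plus 0.1.

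Named genes were the 10 highest and 10 lowest log2 fold changes among called genes that averaged at least 1 CPM and had the same direction in each prep and a call without both short-leaning libraries. Up to 2 called members per list were added, or the member with the smallest p. Other genes were named after their values were seen. The comparison, lists and genes were chosen with earlier results of these data known. The reads carried no molecular identifiers in the labels, so copies made by PCR count as reads.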

Additional observations from a re-analysis of the deposited data

Results flagged for a closer look

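The change from 24 to 28 months differed between brain and liver, by the edgeR interaction test, in 10 genes named by the rule. The brain minus liver difference in log2 fold change was negative for the clock repressor Ciart (-2.89), the fatty acid binding protein Fabp7 (-1.35), the protease Adam8 (-0.93), the clock repressor Cry2 (-0.55), the chemokine Cxcl12 (-0.49) and the synaptic scaffold Homer1 (-0.36). It was positive for the acetyltransferase Nat8f5 (1.89), the complement gene C4b (0.61), the cholesterol synthesis enzyme Dhcr7 (0.50) and the glutathione reductase Gsr (0.29). Of these, 4 (Cxcl12, Homer1, Dhcr7 and Gsr) were not called in the brain itself. Nat8f5 fell further in the liver, by 2.37, from a mean of 6.92 CPM (SD 6.96) to 1.41 CPM (SD 2.97). With brain and liver paired within each mouse, Adam8 and Dhcr7 no longer passed (adjusted p of 0.13 and 0.0567 in limma), and the other 8 did. With only 24 and 28 months in the edgeR fit, Adam8 (adjusted p = 0.266), Homer1 (0.156), Dhcr7 (0.08) and Gsr (0.0574) did not pass and the other 6 did.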

How the results depend on the processing

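The 204 calls moved beyond 1.5 times under most alternatives: 105 with no filter on low counts, 425 with DESeq2, 899 with voom and quality weights, 998 with a clock score and 716 with a ribosomal protein score as covariate, and 669 without both short-leaning libraries. A fit of only 24 and 28 months gave 2, and prep 1 gave 8, preps 2 and 3 each 0. Without both libraries, DESeq2 gave 779, voom 823 and the clock score 727 (253 higher, 474 lower), settings chosen after seeing the data. Leaving out 1 library gave 81 to 525 calls. The libraries that moved the count past 1.5 times were 28 months replicates 17 (81), 7 (95), 10 (372) and 15 (525), and 24 months replicates 7 (124), 12 (135) and 13 (508). Replicate numbers were not taken to pair the mice of the ages. Of 17 same-numbered pairs 7 correlated above 0.1, 8 shared a prep, and in 2 the same number was the best match. No share for pairs of different numbers was counted, so the 7 cannot decide this. With the replicate number as a block in the fit of only 24 and 28 months the calls were 1 (2 without the block). Without both libraries they were 29 (152 without the block). The number of lists with a called gene was 14, and 23 without both libraries. Between tissues 851 genes differed, and 184 with only the 2 ages. Without the brain and liver libraries of 28 months replicate 15 and 24 months replicate 13 the count was 2149. Pairing brain and liver of 1 mouse as a block gave 581. Turned signs were in uncalled results or single preps: Cry2 (-0.00325), Egr3 (0.0410), Homer1 (0.0305), mt-Nd2 (0.0676), Ndufa2 (-0.55) and Rpl24 (-0.21) in prep 2, Ighm (0.0364) and Ndufa2 (-0.0940) in prep 1, and Ndufa2 with the ribosomal score (-0.00108) and the replicate block without both libraries (-0.0169). Leaving out 28 months replicate 15 also turned the uncalled Ndufa2 (-0.22) and Rpl24 (-0.025). The cause was not tested. In simulated data with the same dispersion for every gene, 70% of genes changed 1.3-fold were recovered. Changes of that size can thus be missed, and smaller ones were not simulated.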

Other observations

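Both cold-inducible RNA-binding proteins, Rbm3 and Cirbp, whose messages are known to rise when body temperature falls, were called higher at 28 months without the 2 short-leaning libraries, but not over all libraries. Rbm3 ran from 65.0 over a median of 74.6 to 90.9 CPM at 24 months and from 4.59 over 95.6 to 123 CPM at 28 months. The value of 4.59 CPM came from 28 months replicate 15, and 17 of 18 mice lay above the 24-month median. Over all libraries the log2 fold change of Rbm3 was 0.32 ± 0.12 with an adjusted p of 0.179 (edgeR), and without the 2 short-leaning libraries it was 0.39 ± 0.06 with an adjusted p of 1.8e-05. Cirbp was at 0.32 ± 0.09 (adjusted p = 0.0544) and, without them, at 0.30 ± 0.08 (adjusted p = 0.014), again with 17 of 18 mice above the 24-month median. Both genes were picked after their values were seen.

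Neutrophil granule genes were low at both ages. Summed neutrophil markers had a median of 2.90 CPM (0.796 to 12.3) at 24 months and 6.78 CPM (1.75 to 37.8) at 28 months, and of 4 tested genes edgeR called 0 (4 at an unadjusted p under 0.05), DESeq2 2 and voom 1. Ltf, the granule protein lactoferrin, was at 1.3 ± 0.37 with an adjusted p of 0.0594, and Camp, an antimicrobial peptide, at 1.55 ± 0.45 with an adjusted p of 0.0623. Without the 2 libraries Camp was called (1.45 ± 0.45, adjusted p = 0.0492).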
